A study of Rattus norvegicus with 156 samples.

Results

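The potassium channel genes, taken here as every gene whose symbol starts with Kcn, were followed through the nervous system of rats with and without tied spinal nerves. All probe sets of the rat U34 arrays A, B and C that were annotated to 1 such gene were taken. This gave 97 of 26202 probe sets, 82 on array A, 10 on B and 5 on C, which stand for 63 of 10969 named genes in 19 subfamilies. The inward rectifiers (Kcnj, 15 genes), the ether-a-go-go family (Kcnh, 8) and the Shaker family (Kcna, 6) were the largest subfamilies. Of the 63 genes, 36 had 1 probe set and 27 had several, and a gene is represented by the probe set with the highest mean level unless another is named. For 9 genes no probe set rose above the 40th percentile of its array in 2 of the 52 samples.

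Total RNA was taken from rats killed 19 to 21 days after surgery, when pain behaviour after ligation of the L5 and L6 spinal nerves (spinal nerve ligation, SNL) is studied as a model of neuropathic pain. The 5 treatments were no surgery with vehicle (naive), no surgery with gabapentin (naive+GPN), a sham operation that laid the nerves bare without tying them and was followed by vehicle, SNL with vehicle, and SNL with gabapentin (SNL+GPN). Gabapentin, a drug given against seizures and neuropathic pain, was injected into the peritoneum at 100 mg per kg once a day for 7 days, and the vehicle was saline. Ligated rats entered the study only if their paw withdrawal threshold had dropped, so the ligated pools hold no rats without that sign. Each treatment gave 1 arrayed RNA pool of 4 to 6 rats for each tissue, which left 52 pools over 11 compartments. These were the dorsal root ganglia (DRG) L4, L5 and L6, the sciatic nerve and the spinal cord, each ipsilateral and contralateral to the ligation, and whole brain. In naive rats the side is only a label. The naive contralateral L6 DRG, the naive+GPN contralateral L5 DRG and the SNL contralateral nerve were not among the samples used here. Since a treatment had 1 pool, the 2 ligated pools (SNL, SNL+GPN) were compared with the 3 unligated pools (naive, naive+GPN, sham), so the p-values measure the spread between pools of mixed drug and surgery.

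Potassium channels let potassium leave the cell, which sets the resting potential and ends the action potential. Voltage-gated pores (Kcna, Kcnb, Kcnc, Kcnd, Kcnh, Kcnq) assemble from several subunits, the silent subunits (Kcnf, Kcng, Kcns, Kcnv) form channels only together with Kcnb pores, and the cytoplasmic subunits Kcnab and Kcnip bind to Kcna and Kcnd pores. The inward rectifiers (Kcnj) and the tandem-pore channels (Kcnk) hold the resting potential, and the calcium-activated channels (Kcnma, Kcnn) respond to calcium entry. In sensory neurons these currents oppose repetitive firing.

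Values are array signals, in the arbitrary units of the scanner software, after quantile normalization of the arrays of 1 compartment. Changes are differences of log2(signal + pseudocount), the pseudocount being 5.8 on array A, 4.5 on B and 6.2 on C. A change is called where the adjusted p of limma (Benjamini-Hochberg over all probe sets kept) is below 0.05. Before normalization the lowest and highest array medians were 13 and 62.2 on A, 8.1 and 47.2 on B, and 14.5 and 53.3 on C. Tissue labels were checked against cell markers: the neurofilament gene Nefl had a mean signal of 4830 in DRG, 69.5 in nerve, 2420 in spinal cord and 794 in brain, and Mog, an oligodendrocyte gene, 23.3, 15.7, 440 and 175. The nerve pools also held Ckm, a skeletal muscle gene, at a mean of 2990, and Adipoq, a fat cell gene, at 462.

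In the L5 DRG, whose own nerve was tied, 15 of the 42 potassium channel genes tested were lower in the ligated pools and 0 were higher. Of all 8591 genes tested there, 9.46% were called lower and 6.79% higher. The median change of the channel genes was -0.56 on the log2 scale, and that of all genes was -0.01. In the L6 DRG, the other tied level, 12 of 44 were lower and 1 was higher, with 4.62% and 4.76% of all genes called, and the medians were -0.59 and 0.01. The genes lower at both levels were 8: Kcns1, Kcnd3, Kcnd1, Kcnab1, Kcnab2, Kcns3, Kcnip2 and Kcnc1. Counted without a signal filter, which lets all 63 genes in, 11 were lower and 0 higher in L5 (5.57% and 3.87% of all genes), and 9 were lower and 0 higher in L6 (2.46% and 2.28%). Without the filter 49 of the 63 changes in L5 and 48 in L6 were below zero, where 51% and 49.1% of all genes were. With the filter, 5 of the genes called in L5 and 6 of those called in L6 passed it through 1 group of pools only. The ligated pools lay below every unligated pool for 24 of the 42 genes in L5 and 27 of the 44 in L6, where 27.3% and 20.7% of all genes did. RNA from whole ganglia cannot tell fewer cells of a type from less RNA per cell.

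**Figure D1:**
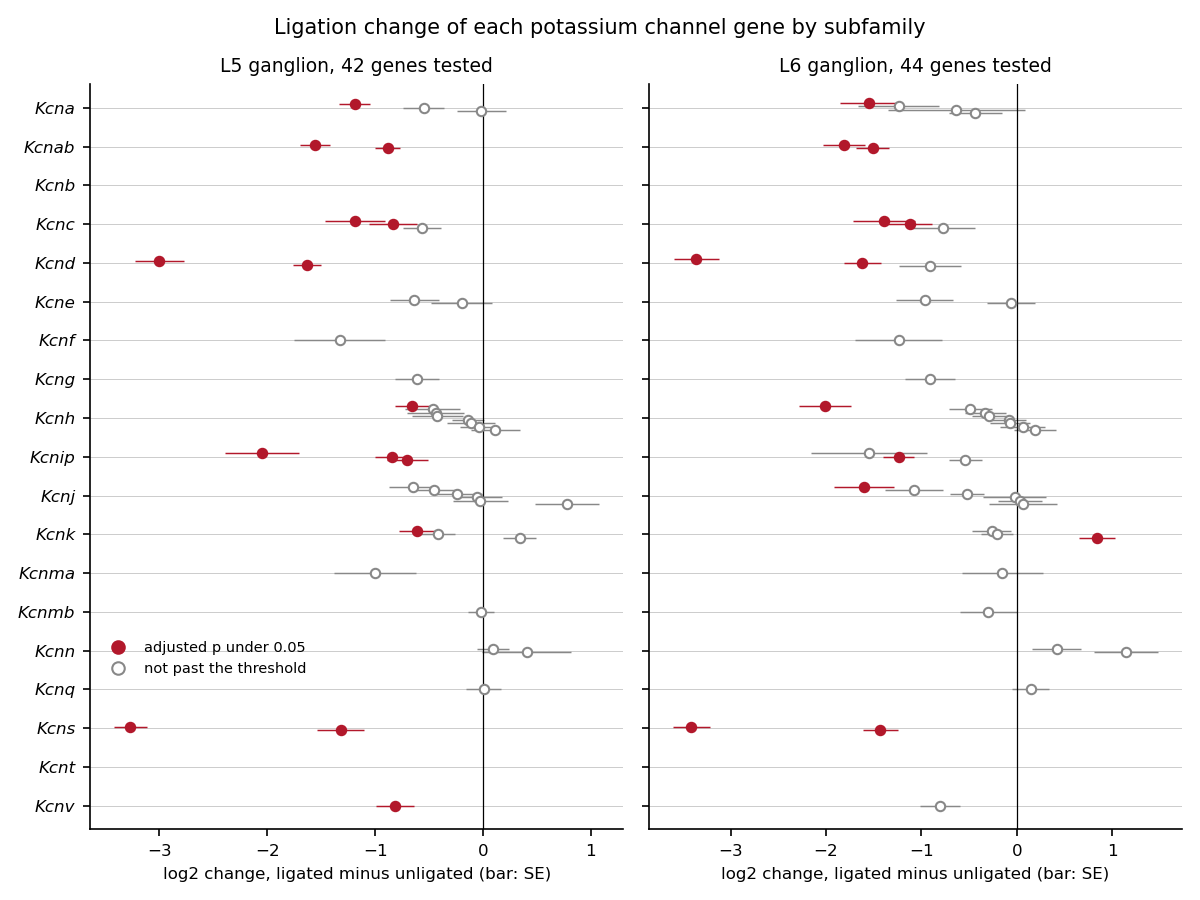
Log2 change in signal, ligated minus unligated pools (2 against 3), for each tested gene in the ipsilateral L5 (left, 42 genes) and L6 DRG (right, 44 genes), by subfamily, with bars for the standard error of the fit. Filled points passed an adjusted p of 0.05: 15 in L5, all left of zero, and 13 in L6, of which Kcnk5 lies to the right.

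The silent subunit Kcns1, which joins Kcnb pores and alters their gating, was lower in both tied ganglia. In L5 its signal was 150 in naive, 184 in naive+GPN and 184 in sham, against 12.6 in SNL and 12.7 in SNL+GPN. In L6 it was 101, 129 and 105 against 4.88 and 5.5. The ligated pools lay below every unligated pool, near the pseudocount, so the fold depends on it (log2 change -2.19 in L5 and -1.94 in L6 with a pseudocount of 32). The log2 change was -3.27 (SE 0.15, limma adjusted p = 0.000334) in L5, 9.65-fold lower, and -3.41 (SE 0.19, adjusted p = 0.000204) in L6, 10.6-fold lower. Its relative Kcns3 had signals of 191, 111 and 132 against 53 and 53.2 in L5, and 132, 138 and 106 against 40.9 and 44.5 in L6. The naive pool was the highest of the 3 in L5, and the groups did not overlap at either level. The change of Kcns3 was -1.32 (SE 0.22, adjusted p = 0.00956) in L5 and -1.43 (SE 0.18, adjusted p = 0.00478) in L6.

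Kcnd3 and Kcnd1 encode pores of the A-type current, which activates below threshold and delays firing. Kcnd3 signal in L5 was 72.7, 73 and 57.6 in the naive, naive+GPN and sham pools and 4.94 and 2.01 in SNL and SNL+GPN. In L6 it was 81, 58.9 and 85.7 against 2.28 and 1.7. All 4 ligated values lay below the pseudocount, so the fold depends on it. The change was -3.0 (SE 0.23, limma adjusted p = 0.00103) in L5 and -3.36 (SE 0.23, adjusted p = 0.000443) in L6, or 7.99-fold and 10.3-fold lower, and with a pseudocount of 32 it was -1.49 and -1.65. The second Kcnd3 probe set was dimmer and gave -0.54 (adjusted p = 0.359) and -1.28 (adjusted p = 0.0669). As an alternative, the changes of both probe sets were averaged and the median of their 2 limma adjusted p was taken, with no new test. By that rule Kcnd3 was not counted as called in L5 (0.18) and was in L6 (0.0337).

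Kcnd1 signal in L5 was 328, 318 and 272 against 96 and 94.7 in the ligated pools, and in L6 191, 203 and 249 against 58.3 and 75.3. It fell by 1.63 (SE 0.13, limma adjusted p = 0.00108) and 1.62 (SE 0.19, adjusted p = 0.00378) on the log2 scale. Kcnd2, the remaining pore of this subfamily, did not pass the filter in L5 and was at -0.91 in L6, not past the test. The Kcnip genes encode calcium-binding proteins that bind the Kcnd pores and raise their surface level. Kcnip2 had signals of 140, 194 and 168 against 93.9 and 87.4 in L5, and 144, 129 and 143 against 56 and 56.3 in L6. It fell by 0.84 (adjusted p = 0.0155) in L5 and by 1.24 (adjusted p = 0.005) in L6. Kcnip3 stood at 17.8, 21.9 and 27.8 against 2.5 and 1.4 in L5 (change -2.05, adjusted p = 0.00999; -0.68 with a pseudocount of 32, since both ligated signals lay below the pseudocount), and Kcnip1 was lower in L5 too (change -0.70, adjusted p = 0.0493). In L6 these changes were -1.55 (adjusted p = 0.168) and -0.54 (adjusted p = 0.0999), not past the test.

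Kcnab1 and Kcnab2 encode cytoplasmic subunits that bind the Shaker-type pores, speed their inactivation or carry them to the axon. Kcnab1 signal was 95.6, 102 and 89.7 against 30.1 and 29 in L5, and 117, 99.9 and 73.4 against 24.4 and 23.3 in L6. Its fall was 2.95-fold in L5 (change -1.56, SE 0.14, limma adjusted p = 0.00137), and the change in L6 was -1.81 (SE 0.22, adjusted p = 0.00406). Kcnab2 signal was 700, 718 and 844 against 400 and 408 in L5, and 722, 765 and 852 against 236 and 307 in L6. The changes were -0.89 (SE 0.12, adjusted p = 0.00473) and -1.51 (SE 0.17, adjusted p = 0.00311). The second Kcnab2 probe set did not pass, at -0.53 (adjusted p = 0.148) and -1.23 (adjusted p = 0.0923). Among the Shaker-type pores themselves, Kcna1 signal in L5 was 572, 507 and 458 against 201 and 243 (change -1.19, adjusted p = 0.00319). Its second probe set was called at both levels, at -0.99 (adjusted p = 0.0121) in L5 and -1.18 (adjusted p = 0.0076) in L6, while the first stood at -0.44 (adjusted p = 0.387) in L6. Kcna4, another A-type pore, was called in L6 only, at -1.55 (adjusted p = 0.0222), and stood at -0.55 (adjusted p = 0.0938) in L5.

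Kcnc1, of the Shaw-type pores that repolarise fast-firing neurons, had signals of 35.2, 31.1 and 39.9 against 13.6 and 21.4 in L5, and of 26.6, 28.9 and 26.1 against 10.5 and 8.38 in L6. Its changes were -0.84 (SE 0.22, limma adjusted p = 0.0444) and -1.12 (SE 0.23, adjusted p = 0.0265). Each of these Kcnc1 calls held in 5 of 11 alternative settings. Both were lost at the deposited scaling, with no filter, and when naive or naive+GPN was left out. Kcnc2 passed in L5 only (-1.19, adjusted p = 0.0295; -0.77 and 0.215 in L6) and Kcnc4 in L6 only (-1.39, adjusted p = 0.0383; -0.57 and 0.07 in L5). The silent subunit Kcng1, 1 of the 5 markers named for this group, was at 40.6, 43.1 and 58.7 against 25.5 and 32.1 in L5 and at 24.3, 42.6 and 36 against 13.9 and 16.6 in L6. The groups were apart at both levels, but neither change passed (-0.61, adjusted p = 0.0827, and -0.91, adjusted p = 0.0759). The silent subunit Kcnv1 passed in L5 (-0.81, adjusted p = 0.0237) and not in L6 (-0.81, adjusted p = 0.0545). The silent subunit Kcnf1 was at -1.33 (adjusted p = 0.0727) and -1.24 (adjusted p = 0.146).

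**Figure D2:**
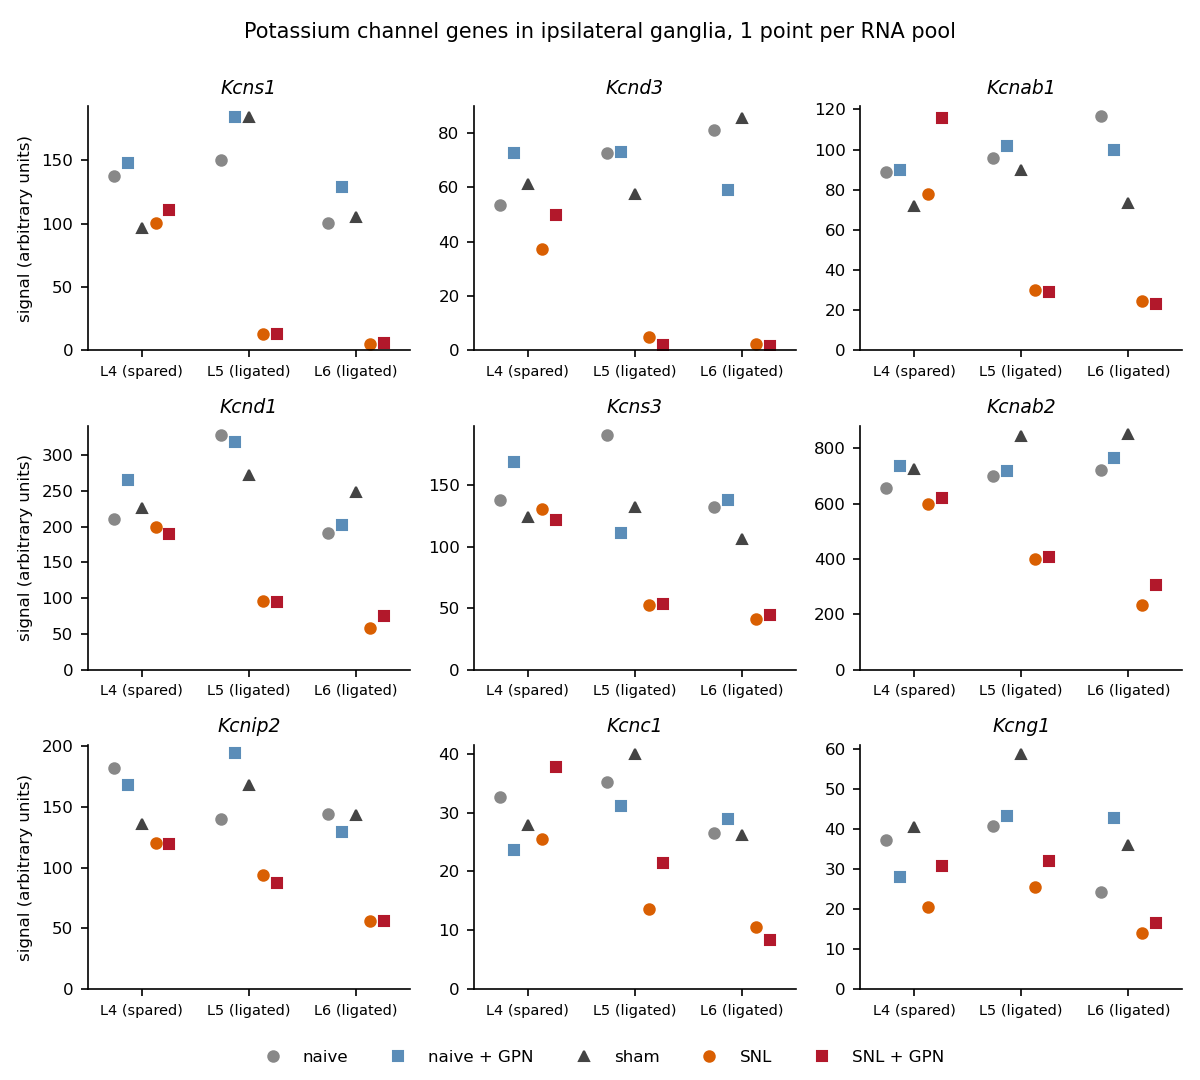
Normalized signal of 9 potassium channel genes in the ipsilateral L4, L5 and L6 DRG, 1 point per pool on a linear axis from 0. In L5 and L6 the 2 ligated pools (SNL, SNL+GPN) lie below the 3 unligated pools for each of the 9 genes, the 8 called at both levels and Kcng1. In L4 the groups overlap for some of them, Kcns1 and Kcnab1 included.

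Of the 8 ether-a-go-go genes (Kcnh), all tested, Kcnh1 was lower in L5 (-0.65, limma adjusted p = 0.0348) and Kcnh6 in L6, where its signals were 44.4, 50.4 and 43.5 against 4.14 and 10.8 (-2.01, adjusted p = 0.00519). Kcnh2, a slowly deactivating channel best known from the heart, differed between its probe sets, and is named because of that after its values were seen. The brighter stood at 135, 148 and 181 against 144 and 135 in L5 (-0.14), and the other at 154, 163 and 142 against 63.7 and 57.9 (-1.25, adjusted p = 0.00215). In L6 the latter was again called (-1.52, adjusted p = 0.00387) and the former not (-0.29). Of the 15 inward rectifiers 6 were tested at each level, 0 were called in L5 and Kcnj12 was lower in L6 (-1.60, adjusted p = 0.0218). Kcnj12 was below the filter in L5. Kcnma1, the large-conductance calcium-activated channel, was at -1.0 in L5 (adjusted p = 0.121) and -0.15 in L6, Kcnq3, a subunit of the M-current that damps repetitive firing, at 0.01 and 0.15, and Kcnn4, an intermediate-conductance calcium-activated channel, at 0.41 and 1.14 (adjusted p = 0.0813 in L6). None of these changes passed. Low signal left the representative probe set of 18 of the 63 genes untested at both levels, among them Kcna2, Kcnb2, Kcnj3 and Kcng2. The second probe set of Kcng2, a silent subunit, was tested in L6 and called lower there (-1.62).

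The tandem-pore channels (Kcnk) carry background current. Kcnk5, which opens at alkaline pH, was the 1 gene called higher: its signal in L6 was 28 in naive, 25.1 in naive+GPN and 28.4 in sham against 49.3 in SNL and 57.5 in SNL+GPN. The change was 0.84 (SE 0.19, limma adjusted p = 0.0338), the ligated pools lay above all others, and in L5 it was 0.34 (adjusted p = 0.171). The call rests on each of several pools: it was lost when naive, naive+GPN, SNL or SNL+GPN was left out, and also at the deposited scaling and with no filter. Kcnk1 was lower in L5 (-0.61, adjusted p = 0.0452; second probe set -1.43, adjusted p = 0.00662) and stood at -0.21 and -0.09 in L6. Over the whole group, the probe sets of 6 of 9 genes with several tested ones gave the same call in L5 and those of 6 of 10 in L6, and 0 genes had probe sets of opposite sign.

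The windows around the start of 3 of the genes lower at both levels and of Kcnk5, the gene that rose, are shown to set members that fell beside the 1 called higher, in L6 only. Each runs from 250 bases before to 50 after the start (RefSeq, assembly GRCr8), written 5′ to 3′ on the gene's strand, and capitals mark GGGCGG, the core of an Sp1 site, on either strand.
Kcns1 (chr3:173262297-173262596, minus strand): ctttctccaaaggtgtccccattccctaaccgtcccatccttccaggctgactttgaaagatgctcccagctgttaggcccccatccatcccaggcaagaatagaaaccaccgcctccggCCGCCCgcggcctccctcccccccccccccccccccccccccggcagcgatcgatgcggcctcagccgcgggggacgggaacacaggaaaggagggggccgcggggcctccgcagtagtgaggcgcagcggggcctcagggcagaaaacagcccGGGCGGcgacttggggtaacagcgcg
Kcnd3 (chr2:195626066-195626365, plus strand): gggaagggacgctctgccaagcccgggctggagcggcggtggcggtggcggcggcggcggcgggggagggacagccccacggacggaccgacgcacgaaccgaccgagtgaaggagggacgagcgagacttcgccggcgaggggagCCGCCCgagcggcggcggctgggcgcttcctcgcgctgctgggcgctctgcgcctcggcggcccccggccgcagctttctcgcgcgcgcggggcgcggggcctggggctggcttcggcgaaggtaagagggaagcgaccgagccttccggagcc
Kcnab1 (chr2:151614301-151614600, plus strand): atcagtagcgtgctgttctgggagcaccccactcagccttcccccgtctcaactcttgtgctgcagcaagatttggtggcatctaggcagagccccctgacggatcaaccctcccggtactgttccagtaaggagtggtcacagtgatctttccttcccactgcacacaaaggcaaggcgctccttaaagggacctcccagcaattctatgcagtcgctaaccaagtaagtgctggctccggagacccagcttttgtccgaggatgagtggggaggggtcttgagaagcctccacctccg
Kcnk5 (chr15:4171375-4171674, plus strand): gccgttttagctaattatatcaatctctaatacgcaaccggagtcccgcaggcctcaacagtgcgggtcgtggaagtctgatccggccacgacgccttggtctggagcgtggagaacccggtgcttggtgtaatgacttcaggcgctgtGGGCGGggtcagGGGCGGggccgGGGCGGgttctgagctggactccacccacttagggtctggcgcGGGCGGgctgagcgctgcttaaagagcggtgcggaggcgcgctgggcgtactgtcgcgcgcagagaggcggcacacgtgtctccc

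Capitals occur in the Kcns1, Kcnd3 and Kcnk5 windows and not in that of Kcnab1. The table held such a window for 45 of the 63 genes, 6 of them with several, and for 7 of the 8 genes lower at both levels; Kcnd1 has none there. GGGCGG was found in 24 of the 45 genes (53.3%), in 5 of those 7, and in 33.1% of all 33469 windows of the table. The median GC content was 61.7% over the 51 windows of the group and 51.7% over all windows. TGANTCA, the AP-1 motif, was found in 3 of 45 genes (6.67%; 7.33% of all windows) and in 0 of the 7. TGACGT, the core of the cyclic AMP response element, was found in 1 of 45 (2.22%; 7.94% of all windows) and in 0 of the 7. A gene of the group was counted if any of its windows matched, while the share over all is per single window. The 2 shares are thus in unlike units. Both strands were searched, and these are matches of letters, with no measure of binding.

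Cell markers, and array quality on some of the arrays, also differed between ligated and unligated pools of the tied ganglia. The summed signal of 10 neuronal genes was 25600 to 26800 in the unligated and 15200 to 17100 in the ligated L5 pools, and 25700 to 26800 against 12300 to 14700 in L6. At each level 6 of the 10 were lower, among them Rbfox3 (-1.57 and -2.02) and Nefl (-1.25 and -1.62), while Stmn2 (-0.01 and 0.09) and Uchl1 (-0.17 and -0.33) did not pass. All 7 macrophage genes were higher at both levels, with a summed signal of 639 to 1110 against 3180 to 3420 in L5 and 637 to 986 against 3400 to 4770 in L6. The sum over 5 satellite glia genes was lower (8690 to 9760 against 6680 to 6750 in L5; 7950 to 8160 against 6360 to 6810 in L6), the sum over 4 fibroblast genes was higher, and the Schwann cell and muscle sums overlapped. Array B, which carries Kcnd1, Kcnab1 and the Kcnip genes, had medians of 25.6 to 29.2 in unligated and 18.1 to 23 in ligated L5 pools before normalization, while the medians overlapped on A and C and in L6. The GAPDH 3′ to 5′ ratio, a sign of RNA length, was lower in the ligated pools on arrays A and C. On A it was 1.13 to 1.26 against 1.01 to 1.05 in L5 and 1.21 to 1.49 against 1.08 to 1.1 in L6. On B it overlapped, at 1.16 to 1.37 against 1.16 to 1.29 in L5 and 1.14 to 1.6 against 1.29 to 1.3 in L6. The part of any of these in the channel falls was not tested.

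The count of called genes depends on single pools. The share over all genes is not given beside the counts of this paragraph. They therefore do not show whether the channel genes moved apart from the rest. In L5 leaving out naive gave 11, naive+GPN 9, sham 9, SNL 8, and SNL+GPN 12 (11 lower, and Kcnj15 higher). In L6 it was 9, 11, 11, 6 and 10 in the same order. Kcns1, Kcnd1, Kcnab1, Kcna1 and Kcnip3 were called in L5, and Kcns1 and Kcnd3 in L6, under every alternative tried. Of the 8 genes lower at both levels, 5 were called at both without SNL and 6 without SNL+GPN. At the deposited scaling, which moves the median of all probe sets in L6 by -0.28, Kcns1 and Kcnd3 were the 2 genes called in L6.

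The drug arms are given apart for 4 genes. These were called on both ligated pools together, so a fall in each arm was largely set by that choice. In L5 the log2 signal of Kcns1 differed by -3.23 between SNL and the mean of naive and sham, and by -3.36 between SNL+GPN and naive+GPN. For Kcnd3 the same differences were -2.72 and -3.34, for Kcnd1 -1.59 and -1.70, and for Kcnab1 -1.49 and -1.67. In L6 they were -3.34 and -3.57 for Kcns1, -3.46 and -3.11 for Kcnd3, -1.82 and -1.38 for Kcnd1 and -1.75 and -1.91 for Kcnab1. The second Kcnab1 probe set was less even in L6, at -2.38 and -0.96. Some other called genes had uneven arms too, such as Kcnc1 in L5 (-1.16 and -0.44) and Kcna4 in L6 (-2.08 and -0.84). Each of these differences rests on 1 ligated pool, so they have no test. Sham minus naive, the effect of surgery without ligation, was 0.29, -0.31, -0.27 and -0.09 for these genes in L5 and 0.05, 0.08, 0.38 and -0.64 in L6, also 1 pool each. Over the 8 compartments measured in all 5 treatments, 0 of 52 channel genes were called for gabapentin, with ligation as a covariate, and 0 of all genes (limma). At an unadjusted p under 0.05 there were 3 (1.96% of all genes): Kcnd3 (0.45), Kcna5 (0.42) and Kcnj1 (-0.25), each with adjusted p = 0.999.

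The L4 DRG sends its axons through an intact spinal nerve beside the tied ones, and here no channel gene passed. Of 42 tested genes 0 were called, 6 had an unadjusted p under 0.05 (14.3% of all genes), and 0.0468% and 0.0117% of all genes were called lower and higher. The median change was -0.16 (all genes -0.01), and the ligated pools lay below every other pool for 13 genes and above for 1, where 17.9% and 14.9% of all genes did so. Kcns1 signal was 138, 148 and 96.5 in the unligated pools and 101 and 111 in SNL and SNL+GPN, and the groups overlapped. Kcnd3 stood at 53.6, 72.5 and 61.4 against 37.4 and 49.7, Kcnd1 at 211, 265 and 226 against 200 and 190, and Kcnab1 at 89.1, 90 and 71.8 against 77.9 and 116. For Kcnd3 and Kcnd1 the ligated pools lay below the others. The changes, with 95% confidence intervals, were -0.23 (-0.67 to 0.21) for Kcns1, -0.47 (-0.90 to -0.04; limma adjusted p = 0.309) for Kcnd3, -0.26 (-0.57 to 0.07) for Kcnd1 and 0.19 (-0.27 to 0.64) for Kcnab1. The lowest was Kcna5, a Shaker-type pore, at -1.40 (adjusted p = 0.0819), and at the deposited scaling it was the 1 channel gene called in L4. The share of all genes called at that scaling is not given. The neuronal sum overlapped between the groups in L4 (26400 to 26800 against 23500 to 27400), and the macrophage sum did not (668 to 966 against 1060 to 1770). The GAPDH 3′ to 5′ ratio was lower in the ligated L4 pools on arrays A, B and C (1.29 to 1.34 against 1.12 to 1.16 on A). The sum of 4 injury genes (Atf3, Gal, Npy, Vip) was 159 to 316 against 803 to 1340 in L4, with Npy called higher (2.70, adjusted p = 0.0467), and it was 125 to 390 against 2890 to 3280 in L5. The part of any of these in the L4 values was not tested.

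Whether the tied ganglia changed more than the spared one was tested on the mean of L5 and L6 minus L4 of the same treatment. Each tissue had its own RNA pool, and the labels do not say if the pools of 1 treatment came from the same animals; this also bears on the side differences and the tissue contrasts. Of 46 tested channel genes 0 passed, 19 had an unadjusted p under 0.05 (20.1% of all genes), and 0.0878% of all genes were called lower and 0% higher. Kcns1 differed by -3.11 (95% confidence interval -3.98 to -2.24, limma adjusted p = 0.0553), Kcnd3 by -2.71 (-3.50 to -1.92, adjusted p = 0.0562), Kcnab1 by -1.87 (-2.42 to -1.32, adjusted p = 0.0562) and Kcnd1 by -1.37 (-1.82 to -0.92, adjusted p = 0.0637). The second Kcnd3 probe set had the opposite sign, at 0.25 (limma adjusted p = 0.815), and that of Kcnab1 stood at -2.35 (adjusted p = 0.0786). With a pseudocount of 32 these 4 and Kcnab2 and Kcns3 were called, 6 in all. At the deposited scaling the 4 and Kcnip3 were called, with the median of all probe sets shifted by -0.75. The share of all genes called at these 2 settings is not given. These calls therefore do not show whether the channel genes moved apart from the rest.

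On the contralateral side the Kcns1 signals of the ligated pools lay among those of the unligated pools in L5 and above them in L6: 154 and 165 against 136 and 185 in L5, and 101 and 116 against 88.9 and 65.8 in L6. Kcnd3 stood at 61 and 61.2 against 110 and 80 in L5, and 62.8 and 92.3 against 63.4 and 54.5 in L6. Kcnd1 stood at 275 and 243 against 319 and 297 in L5, and 245 and 233 against 197 and 281 in L6. Kcnab1 stood at 131 and 145 against 105 and 120 in L5, and 88.6 and 125 against 115 and 95.2 in L6. In L5 the ligated pools were thus apart, lower for Kcnd3 and Kcnd1 and higher for Kcnab1, on this side too. The difference between the sides was tested with 2 pools against 2. In L5 0 of 47 genes passed and in L6 0 of 47, with 0% of all genes called, and 16 and 24 genes had an unadjusted p under 0.05 (15.8% and 14.1% of all genes). Kcns1 was at -3.23 (95% confidence interval -4.92 to -1.54, limma adjusted p = 0.236) in L5 and -3.94 (-5.24 to -2.65, adjusted p = 0.168) in L6. Kcnd3 was at -2.37 and -3.65, Kcnd1 at -1.36 and -1.71, and Kcnab1 at -1.80 and -1.68. The second Kcnd3 probe set had the opposite sign in L5, at 0.20, and was at -1.42 in L6. That of Kcnab1 was at -2.43 and -3.34. Kcng1 was at -1.55 in L5 (adjusted p = 0.236), where its contralateral signals were 58.8 and 91.2 in SNL and SNL+GPN against 32.5 and 42.2. In L5 the unligated pools with both sides were naive and sham, so gabapentin was given to 1 of the ligated pools only.

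**Figure D3:**
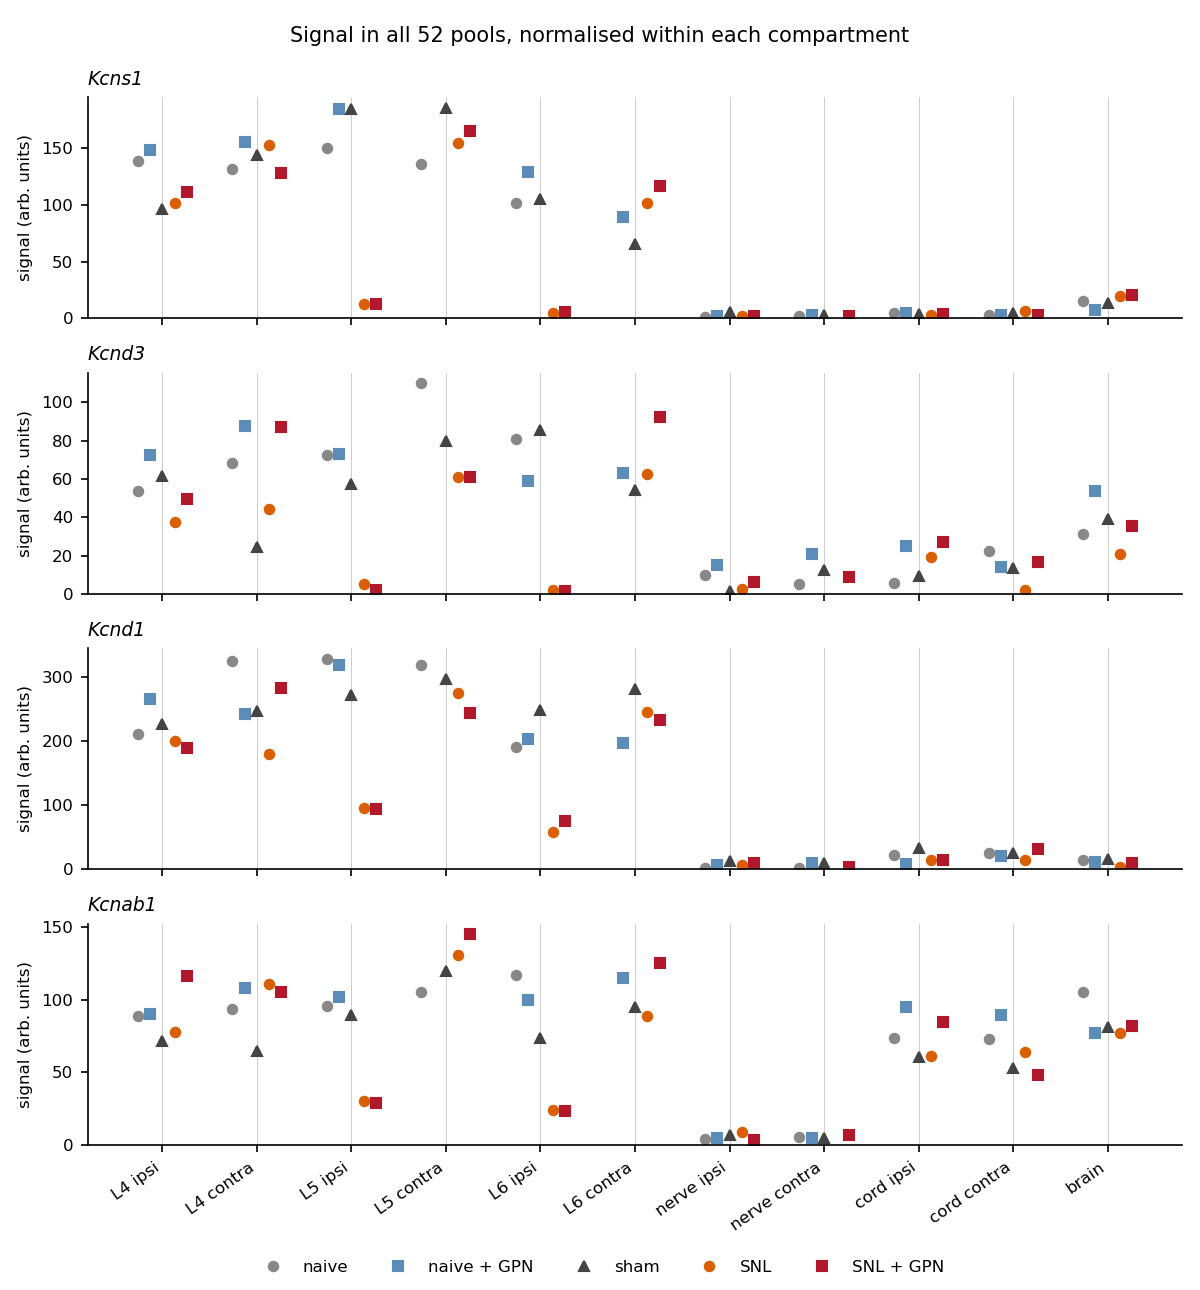
Normalized signal of Kcns1, Kcnd3, Kcnd1 and Kcnab1 in all 52 pools over the 11 compartments, 1 point per pool, coloured by treatment. The 2 ligated pools lie below the 3 others in the ipsilateral L5 and L6 DRG for all 4 genes. Outside the DRG Kcns1 reaches at most 20.5 (SNL+GPN, brain) and Kcnd1 at most 33.9 (sham, ipsilateral spinal cord).

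In the sciatic nerve beyond the ligation 1 of 27 tested genes was called, and 2.86% of all genes were called lower and 2.04% higher. Kcnk1 signal there was 139 in naive, 188 in naive+GPN and 83.8 in sham against 33.8 in SNL and 49.2 in SNL+GPN. The change was -1.54 (SE 0.33, limma adjusted p = 0.0455). Its second probe set, on array B, went from 149, 170 and 101 to 17.3 and 26.5 (-2.44, adjusted p = 0.00462). In contralateral nerve the first probe set stood at 145, 164 and 124 in the unligated pools and 150 in SNL+GPN. The second probe sets of Kcna1 (-1.77, adjusted p = 0.0106) and of Kcnj11, the pore of ATP-sensitive channels (-1.53, adjusted p = 0.0167), were also lower, while the first Kcna1 probe set was at -1.20 (adjusted p = 0.0798). The Kcnk1 call was lost when naive, naive+GPN, SNL or SNL+GPN was left out, at the deposited scaling and with no filter, and when sham was left out Kcna1 was called beside it. The GAPDH 3′ to 5′ ratio on array A ran from 1.6 to 7.38 in the unligated and from 1.61 to 1.92 in the ligated nerves. The sum of the Schwann cell and peripheral myelin genes was 15200 to 16400 against 10700 to 10800, and that of the fat cell genes 858 to 1160 against 293 to 425; their part was not tested.

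In the spinal cord 0 of 40 channel genes passed and in the brain 0 of 45, where 0 of all genes passed either (limma). The median change was -0.19 in the cord (all genes 0.000741) and 0.01 in the brain (all genes -0.01). With no filter 47 of the 63 changes in the cord and 33 in the brain were below zero, where 50.5% and 51.9% of all genes were. At an unadjusted p under 0.05 there were 2 in the cord (2.29% of all genes), Kcnab3 (0.61) and Kcnj11 (-0.34), and 3 in the brain (2.69%), Kcns3 (0.73), Kcnq3 (0.64) and Kcna5 (0.58). The second Kcnab3 probe set, on array B, stood at -0.08 in the cord. Kcns1 in the brain was 15, 7.28 and 13.2 in the unligated pools and 19.8 and 20.5 in the ligated ones, which were the highest. It lay above the filter percentile in 0 of the 3 unligated brain arrays and was not tested there. Kcnc1 in the ipsilateral cord was 159, 177 and 148 against 156 and 139, and Kcnab2 597, 533 and 482 against 494 and 448.

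Without ligation the channel genes were compared between tissues over the 3 unligated pools. Of 53 tested genes, 14 were higher and 8 lower in DRG than in spinal cord (16% and 13.7% of all genes). Against nerve, 24 were higher and 3 lower in DRG (22.5% and 28.8%). In either direction 22 were called against cord and 27 against nerve, where 29.6% and 51.3% of all genes were. The count against nerve is thus near the share of all genes. The GAPDH 3′ to 5′ ratio on array A was 1.6 to 7.38 in the unligated ipsilateral nerves. In unligated ipsilateral L4, L5 and L6 DRG it was 1.29 to 1.34, 1.13 to 1.26 and 1.21 to 1.49. The sham contralateral L4 DRG had 3.16. The part of RNA quality in the tissue differences was not tested. Kcns1 had a signal of 123 ± 9.08 (SD, n = 3) in DRG, 4.03 ± 1.98 in nerve, 3.95 ± 0.395 in spinal cord and 11.6 ± 3.95 in brain. Kcnd1 had 242 ± 5.85, 11.8 ± 7.65, 20 ± 6.57 and 13.8 ± 2.47. These were the highest differences between DRG and cord, 3.69 (SE 0.20, limma adjusted p = 1.37e-08) for Kcns1 and 3.40 (adjusted p = 3.12e-06) for Kcnd1. Among the other tissues, Kcns1 in brain lay above cord (0.81, limma adjusted p = 0.00992), and Kcnd1 did not (-0.35, adjusted p = 0.515). This Kcns1 difference did not pass the test when naive or sham was left out. Kcns1 lay above the filter percentile in 0 of the unligated cord and brain arrays. It entered the brain test through the 16 unligated DRG arrays, so that difference lies between 2 low signals. Kcnd3 had 64.4 ± 7.89 in DRG, 14.9 ± 8.26 in nerve, 15.3 ± 3.73 in cord and 42.4 ± 12.4 in brain, and DRG was 1.78 above cord. Kcnv1 (1.39) and Kcnip3 (1.31) completed the 5 largest rises over cord, with Kcnip3 at 17.6 ± 2.22 in DRG and 3.75 ± 0.977 in cord.

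Among the genes lower at both tied levels, the tissues did not rank alike. Kcnab2 had 709 ± 53.2 in DRG, 77.3 ± 5.25 in nerve, 537 ± 44.5 in cord and 515 ± 51.1 in brain, and Kcnab1 92.5 ± 11.1, 8.08 ± 1.02, 66.5 ± 16.4 and 87.4 ± 15.6, so both were low in nerve. DRG minus cord was 0.40 for Kcnab2 (limma adjusted p = 0.0141) and 0.45 for Kcnab1 (adjusted p = 0.078). The 5 largest differences of DRG over nerve were Kcnd1 (4.05), Kcns1 (3.70), Kcnab2 (3.11), Kcnab1 (2.93) and Kcnh1 (2.34). The 10 neuronal markers were also higher in DRG than in nerve, all 10 of them, with a median of 5.82. Kcnc1 was instead higher in the central nervous system: 30.7 ± 0.732 in DRG, 8.36 ± 1.05 in nerve, 161 ± 4.41 in cord and 251 ± 31.8 in brain, with DRG minus cord at -2.21 (limma adjusted p = 1.18e-08).

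Other genes higher in cord than in DRG were Kcnab3 (28.9 ± 3.33 against 5.01 ± 1.14; DRG minus cord -1.70), the inward rectifiers Kcnj14 (36.3 ± 2.94 against 8.21 ± 3.05; -1.65) and Kcnj16 (40.2 ± 17.5 against 10.4 ± 1.91; -1.48), and Kcnd2 (57.5 ± 19.8 against 22.6 ± 4.65; -1.11). The 3 genes higher in nerve than in DRG were Kcnj8, the pore of vascular ATP-sensitive channels (58.2 ± 7.32 against 19.3 ± 1.1), Kcnk5 (83.4 ± 10.5 against 30.8 ± 1.27) and Kcnk1 (169 ± 43.2 against 119 ± 7.96). DRG minus nerve was -1.34, -1.29 and -0.47 for them, and for Kcnk1 it turned to 0.04 at the deposited scaling. Between brain and cord 15 genes were higher in brain and 3 lower (10.2% and 12.2% of all genes). The 5 largest differences of brain over cord were Kcnj4 (1.99), Kcnv1 (1.92), Kcnf1 (1.87), Kcnh1 (1.42) and Kcnc2 (1.36). Kcnj4, an inward rectifier of forebrain neurons, stood at 54.2 ± 15.6 in brain and 11.4 ± 10.6 in cord, and Kcnc2 at 143 ± 19.5 and 53 ± 4.56. Lower in brain were Kcns3 (27.7 ± 8.07 against 68.4 ± 6.53; -1.16), Kcnj14 (-0.91) and Kcnj16 (-0.71).

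**Figure D4:**
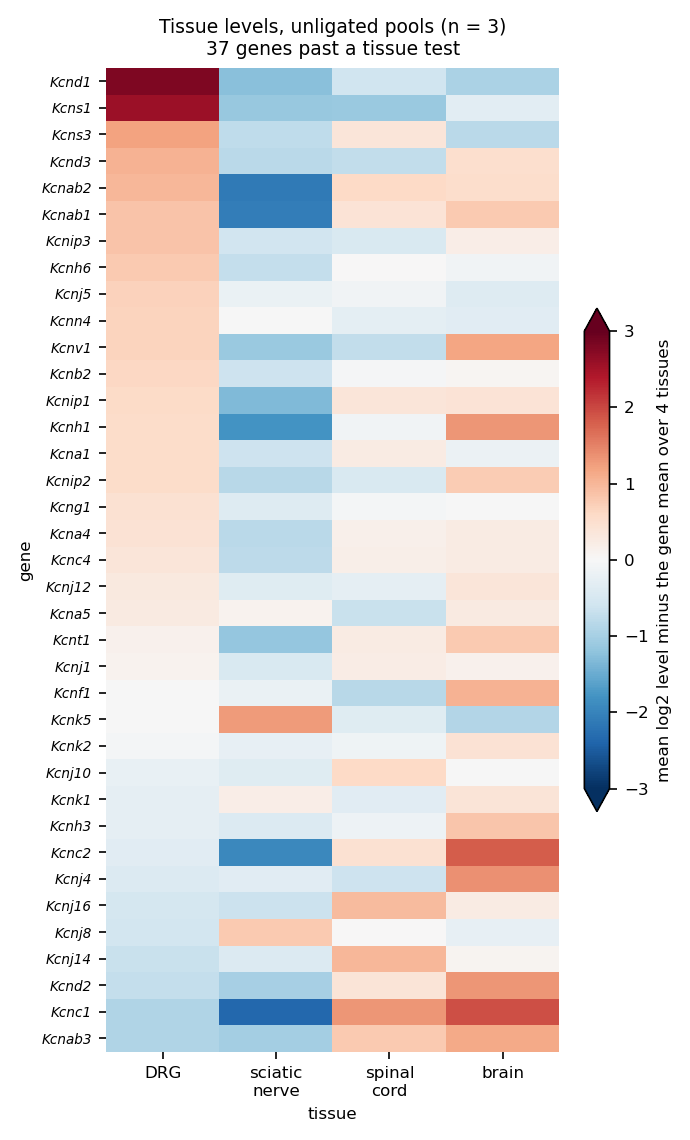
Mean log2 signal of 37 genes past at least 1 tissue test, minus the gene's mean over DRG, sciatic nerve, spinal cord and brain, in the unligated pools (n = 3), from blue (below the gene's mean) to red (above it). Kcnd1 and Kcns1 stand out in DRG and Kcnc1 and Kcnc2 in brain, and Kcnab1, Kcnab2, Kcnc1 and Kcnc2 are lowest in nerve.

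Of those 37 genes 16 had their highest mean in DRG, 15 in brain, 4 in spinal cord and 2 in nerve. Signal above the 40th percentile of the array in every unligated array was found for 26 genes in DRG (16 pools), 18 in nerve (6), 26 in spinal cord (6) and 31 in brain (3). In no such array was it found for 13, 28, 20 and 16 genes. The tissues differ in their number of arrays, so these counts cannot be ranked between tissues. No share over all genes is given beside them or beside the split by highest mean.

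Proteins that work with these channels were followed as a list of 21 genes, of which 13 were on the arrays. In L5 3 of 10 tested were lower and 0 higher, where 9.46% of all genes were lower: Dpp6, a subunit of Kcnd channels (-1.87, limma adjusted p = 0.00101), Amigo1, a subunit of Kcnb channels (-1.57, adjusted p = 0.00219), and Cntnap1, a paranodal adhesion protein (-0.78, adjusted p = 0.00755). In L6 5 of 11 were lower and 0 higher (4.62% of all genes lower), with Amigo1 at -1.91, Dpp6 at -1.74, Cntnap1 at -1.34 and Abcc8, the sulfonylurea receptor of ATP-sensitive channels, at -1.23. The fifth was Cntn2, an axonal adhesion protein, at -1.13. The medians of the list were -0.11 and -0.21, and 0 of 10 passed in L4. Of 7 potassium pump and cotransporter genes on the arrays 6 were tested in each ganglion, and Atp1b3, a subunit of the sodium pump, was the 1 called, at -0.57 in L5 (adjusted p = 0.0206) and -0.97 in L6 (adjusted p = 0.00671).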

How the data were processed

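The authors hybridised each RNA pool to 3 Affymetrix rat U34 arrays (A, B, C) and deposited linear probe set intensity made with MAS5, per the submitters' processing notes; no source used here states its version, scaling target or detection calls. From these 156 arrays, those of a set and compartment were quantile normalized (for tissue contrasts, all arrays of a set). Values were taken as log2(signal + pseudocount), the pseudocount being the 20th percentile of a set. A probe set was tested if its signal exceeded the 40th percentile of its array in 2 or more of the samples compared, and 177 control probe sets entered normalization but no test. Symbols came from the platform annotation, updated through Entrez identifiers for 18122 probe sets with a RefSeq table of GRCr8, used for names and promoter sequences; 18178 probe sets had 1 symbol, 391 several and 7633 none, and identifiers are not printed. Tests were two-sided fits with limma 3.58.1 (lmFit, eBayes with trend) in R 4.3.3, adjusted by Benjamini-Hochberg over all kept probe sets at 0.05, and the script was tested on simulated data. Tissue fits used the mean log2 over the compartments of a tissue in each unligated pool. Named genes are those called in both tied ganglia, the 5 markers Kcns1, Kcnd3, Kcnd1, Kcnab1 and Kcng1, those called in other tests, and the 5 largest differences in each direction per tissue contrast; other members are given by change, range or count, and those shown with signals beyond this were chosen after their values were seen. The members and lists were chosen with earlier results of these data known. Alternatives were the deposited scaling, median scaling, no filter, a pseudocount of 32, the mean over a gene's kept probe sets, 1 spread over compartments and leaving out each pool. For the mean over probe sets the changes were averaged and the median of their adjusted p was taken, with no new test. The number of pools limits the precision.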

Additional observations from a re-analysis of the deposited data

How the results depend on the processing

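Counts below are of channel genes called by limma. The share over all genes at each setting is not given beside them. They therefore do not show whether the channel genes moved apart from the rest. At the deposited scaling the count was 2 in L6, 1 in L4, 0 in nerve, 5 for tied minus spared ganglia, 1 for the side difference in L5 (Kcng1) and 42 for DRG minus nerve (2 lower and 40 higher, against 3 and 24). That scaling shifted the median of all probe sets by -0.28, 0.49, 0.33 and -0.75 in the first 4 of these and by 0.50 in the last. It also turned Kcnk1 from -0.47 to 0.0354 for DRG minus nerve, the 1 reversal. In nerve the count was 2 with median scaling, 2 with the mean over a gene's probe sets and 4 with 1 spread over compartments. A pseudocount of 32 gave 6 for tied minus spared ganglia and 2 for the side difference in L6 (Kcns1 and Kcnd3). With 1 pool left out the counts ran from 8 to 12 in L5, 6 to 11 in L6, 0 to 2 in nerve, 0 to 2 for the side difference in L6, 14 to 18 for DRG minus spinal cord, 21 to 25 for DRG minus nerve and 11 to 17 for brain minus spinal cord. Calls that held under every alternative were 5 of 15 in L5, 2 of 13 in L6, 0 of 1 in nerve, 12 of 22 for DRG minus spinal cord, 21 of 27 for DRG minus nerve and 7 of 18 for brain minus spinal cord. The cause of these differences was not tested. No paired analysis was possible because each treatment has 1 pool in a compartment and the labels give no replicate numbers that could serve as a block; the tied minus spared and side tests instead take differences between compartments of 1 treatment. Signals near or below the pseudocount, as those of Kcns1, Kcnd3 and Kcnip3 in tied ganglia, bound the size of a fold.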
